A study of Rorippa islandica and Rorippa pyrenaica with 24 samples.

Results

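Gene by gene, the first day under water was compared between the Brassicaceae species *R. islandica* and *R. stylosa*, which the labels list as *Rorippa pyrenaica*. The measure was the species by submergence interaction at 24 h, which is the log2 response of *R. islandica* (submerged minus air) minus the log2 response of *R. stylosa*. It was formed from the 12 libraries harvested at 24 h, of 24 in the series, with 3 libraries in each of 4 groups: *R. islandica* kept in air, *R. islandica* submerged, *R. stylosa* kept in air and *R. stylosa* submerged. The labels name no genotype, allele or agent beyond the species and the treatment. Plants were submerged in transparent boxes of tap water, controls stood in empty boxes, and young leaves were sampled. *R. islandica* is a selfing annual that was grown from seed, whereas *R. stylosa* is a self-incompatible perennial that was propagated vegetatively, separately for each replicate, so that species and mode of propagation cannot be told apart. The 12 libraries of the 48 h harvest, from the same 4 combinations, served as a second set.

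Flooded leaves cannot exchange gas freely. Respiration and photosynthesis become limited by supply, and ethylene that would escape into air is trapped and acts as an early signal of flooding. Plants respond through ethylene and low-oxygen signalling, through starvation genes when photosynthesis does not cover demand, and by shutting down growth. Species that tolerate floods either escape by growth and aerated tissue or slow their metabolism until the water recedes. An interaction test separates a response that both species share from one that is steeper, weaker or of the opposite sign in 1 of them.

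Identifiers are those of the *R. islandica* annotation, to which the reads of both species had been assigned. The deposited tables do not pair them with gene names, so genes are described by their behaviour, by their orthogroup (a set of genes descended from 1 ancestral gene) and by their coding length, and the leaf label was not checked against marker genes. Library totals at 24 h ranged from 36432258 to 66692318 counts in *R. islandica* in air and from 36482358 to 44444905 under water, and from 28054876 to 36664964 in *R. stylosa* in air and from 24127592 to 35953647 under water. No 2 replicates held the same library, with a chi-square per degree of freedom of 13.8 or higher between replicates. Levels are given as CPM, the count of a gene relative to the TMM-scaled total of its library. A change was called where edgeR's quasi-likelihood method (glmTreat) placed it beyond a log2 value of 1, with p-values adjusted by Benjamini-Hochberg over 22226 tested genes and a threshold of 0.05. The labels do not say how many plants went into a library, so p-values measure only the spread between these libraries. In whole leaves, fewer cells of a type and less RNA per cell cannot be told apart.

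*R. islandica* had the higher response in 586 genes, 2.64% of the genes tested, and the lower response in 897 genes, 4.04%. A higher response can be a stronger rise or a weaker fall, and a lower response the reverse. Together these 1483 interaction genes made up 6.67%. The median interaction was 2.49 on the log2 scale among the higher and -2.61 among the lower responses, against -0.029 over all genes tested. Interactions beyond a log2 value of 4 were found for 100 of the higher and 184 of the lower responses, and the largest absolute values were 10.05 and 11.16. Tested against no difference at all, 15.7% of the genes had a higher and 17.2% a lower response (32.9% together). In 12 fits that each lacked a single 24 h library, 386 of the 586 and 602 of the 897 genes were called every time.

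**Figure D1:**
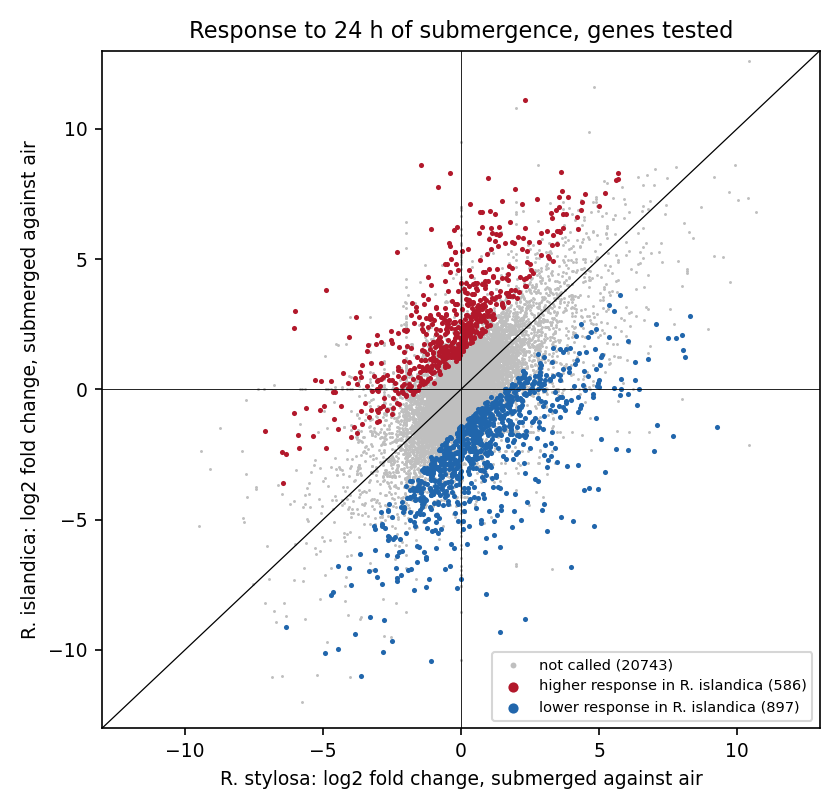
Log2 fold change of submerged against air at 24 h in *R. stylosa* (x axis) and *R. islandica* (y axis) for the 22226 tested genes, 1 point per gene, with the diagonal marking equal responses. The 586 genes with a higher response in *R. islandica* lie above the diagonal and the 897 with a lower response below it.

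The summed share of counts held by these genes moved mainly in *R. islandica*. In *R. stylosa* a sum can hide changes that cancel. Of the 586 genes, 72 were called upregulated and 121 downregulated in *R. stylosa*, and of the 897 genes 241 and 75. In *R. islandica*, 415 of the 586 were called upregulated and 8 downregulated, and of the 897 genes 19 and 566. The 586 higher responders held 1.45%, 1.45% and 1.49% of all counts in the 3 *R. islandica* air libraries and 6.51%, 6.80% and 6.90% under water. In *R. stylosa* they held 2.45%, 2.44% and 2.83% in air and 2.53%, 3.14% and 2.80% under water, and these ranges overlap. The 897 lower responders went from 6.5%, 6.84% and 6.72% in *R. islandica* air libraries to 1.59%, 1.47% and 1.48% under water. In *R. stylosa* they went from 4.62%, 4.91% and 4.60% to 4.2%, 4.03% and 4.30%. Among the higher responders, the most abundant gene held at most 0.389% in any 24 h library. Among the lower responders, the most abundant gene made up a sizeable part of the share in *R. islandica* in air. It held 1.91%, 1.93% and 1.84% there, and the most abundant one held 0.251%, 0.256% and 0.24% under water. These genes were chosen on the same libraries, so the shares at 24 h describe the selection. The 48 h libraries do not enter the contrast that chose them, but they were part of the same fit and helped to set its filter and its estimate of the spread. A fit of the 24 h libraries alone called 521 higher and 835 lower responses, which included 498 of the 586 and 793 of the 897 genes. In the 48 h libraries, the higher responders held 1.41% to 1.56% in *R. islandica* in air and 6.22% to 6.75% under water, against 2.13% to 2.74% and 2.68% to 3.16% in *R. stylosa*.

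Each interaction gene was then sorted by whether it was called upregulated, downregulated or neither in each species. A stronger response of *R. islandica* in the same direction, or beside an uncalled one of *R. stylosa*, accounted for 940 genes or 63.4% of the interaction genes, 400 of them upward and 540 downward. A stronger response of *R. stylosa* accounted for 321 genes or 21.6%, of which 215 were upward and 106 downward. In 41 genes the species were called in opposite directions, and in 181 genes neither response was called although their difference was. As background, 10.6% of all tested genes were upregulated and 10.1% downregulated in *R. islandica*, against 7.22% and 4.69% in *R. stylosa*.

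**Figure D2:**
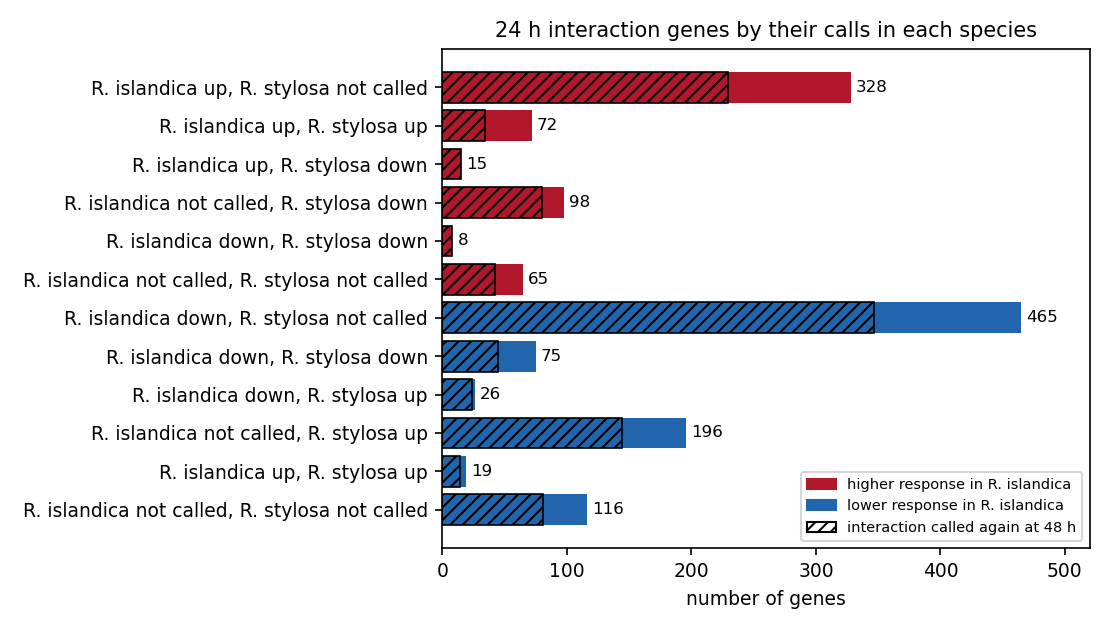
Number of interaction genes at 24 h (x axis) by their calls in each species, in red for a higher and in blue for a lower response in *R. islandica*, with the genes whose interaction was called again in the same direction at 48 h hatched. The longest bars are the 465 genes downregulated in *R. islandica* alone and the 328 upregulated in *R. islandica* alone.

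The largest class among the higher responses held 328 genes that were upregulated in *R. islandica* and not called in *R. stylosa*. Their median log2 response reached 2.68 in *R. islandica* against 0.14 for *R. stylosa*, and the median over genes of the group mean rose from 2.47 to 17.1 CPM in *R. islandica*, while it was 5.31 CPM in air and 5.29 CPM under water in *R. stylosa*. Not being called does not show that a gene was unchanged in *R. stylosa*. Tested against no change, 85 of these genes rose in *R. stylosa* and 38 fell, where 26.9% and 26.5% of all tested genes did. The share that rose was thus close to that of all tested genes, and the share that fell was below it. Of all 1403 tested genes called upregulated in *R. islandica* only, these 328 (23.4%) were the ones whose difference between the species was called as well. Another 72 genes were upregulated in both species and more steeply in *R. islandica*, with median log2 responses of 5.61 and 2.56. They went from 3.77 to 114 CPM in *R. islandica* and from 5.77 to 32.6 CPM in *R. stylosa*. These 72 were 7.71% of the 934 genes upregulated in both species (4.2% of the genes tested), and 19 genes (2.03%) went the other way, induced in both but less in *R. islandica*, with medians of 2.03 and 4.71. That number was 12 without *R. islandica* air replicate 2 and 11 without *R. islandica* submerged replicate 2.

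Among the lower responses, 465 genes were downregulated in *R. islandica* and not called in *R. stylosa*. Their median log2 response reached -2.81 in *R. islandica* against -0.08 for *R. stylosa*. Median air levels of the species were close, with 8.79 CPM in *R. islandica* and 8.64 CPM in *R. stylosa*, and under water they stood at 1.05 and 7.60 CPM. Single genes could still differ in air, where 81 were called lower and 108 higher in *R. islandica*. Of all tested genes, 14.0% and 17.3% were. Against no change, 151 of the 465 fell in *R. stylosa* and 91 rose, where 26.5% and 26.9% of all tested genes did. They were 29.2% of the 1591 genes called downregulated in *R. islandica* only. In another 75 genes both species fell, *R. islandica* by a median of -5.35 and *R. stylosa* by -2.34. These went to 0.424 CPM in *R. islandica*, from 28.7 CPM in air, while *R. stylosa* kept 8.67 of 43.1 CPM. They were 12% of the 623 genes downregulated in both (2.8% of the genes tested). In 8 genes both species fell but *R. stylosa* fell more, by a median of -5.40 against -2.25. That number was 4 without *R. islandica* submerged replicate 2, and 5 without each of *R. islandica* air replicates 2 and 3, *R. stylosa* air replicate 3 and *R. stylosa* submerged replicate 2.

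Responses of *R. stylosa* that *R. islandica* did not share were fewer. Of the genes upregulated in *R. stylosa* only, 196 of 645 (30.4%) had a called interaction. They rose from 0.975 to 6.31 CPM in *R. stylosa*, a median log2 response of 2.79, while *R. islandica* was at 2.54 CPM in air and 2.68 CPM under water. Against no change, 31 of them rose and 42 fell in *R. islandica*, where 31.5% and 32.4% of all tested genes did. Of the genes downregulated in *R. stylosa* only, 98 of 405 (24.2%) had a called interaction. They went from 12.5 to 1.45 CPM in *R. stylosa*, a median of -2.81, and were at 8.77 and 7.74 CPM in *R. islandica*. Against no change, 15 of these 98 genes rose and 21 fell in *R. islandica*, where 31.5% and 32.4% of all tested genes did.

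Opposite calls were the smallest of the main patterns, and their number depended on the threshold. The 15 genes upregulated in *R. islandica* and downregulated in *R. stylosa* were 0.0675% of the genes tested, and the 26 with the reverse calls 0.117%. The 15 genes had median log2 responses of 2.25 and -2.56. At the median, *R. islandica* held 2.62 CPM in air and 8.74 CPM under water, and *R. stylosa* 9.90 and 0.695 CPM. In air, *R. islandica* was called lower than *R. stylosa* for 8 of the 15 and higher for 2, and under water it was called higher for 10 and lower for none. The 26 genes had medians of -1.95 and 2.29, and went from 9.70 to 2.40 CPM in *R. islandica* and from 0.796 to 5.15 CPM in *R. stylosa*. For these, *R. islandica* was called higher in air for 18 and lower for 2, and under water lower for 13 and higher for none. Of all tested genes, 17.3% were called higher and 14.0% lower in *R. islandica* in air, and 18.6% and 17.7% under water. Both sets were chosen by their responses in these same libraries. DESeq2, which called fewer interactions in all, left 6 and 10 genes with opposite calls. With the log2 threshold of 1 applied after a test against no change there were 59 and 117, and without a threshold 384 and 470. In the remaining 65 higher and 116 lower interaction genes, neither response was called. Their medians lay on either side of 0, at 1.06 in *R. islandica* and -1.02 in *R. stylosa* for the higher ones and at -1.10 and 0.93 for the lower ones. Against no change, 60 of the 65 rose in *R. islandica* and 62 fell in *R. stylosa*, while 113 of the 116 fell in *R. islandica* and 110 rose in *R. stylosa*. Of all tested genes, 31.5% rose and 32.4% fell in *R. islandica*, and 26.9% and 26.5% in *R. stylosa*. A called interaction without a called response all but sets opposite signs, so these counts describe the selection.

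**Figure D3:**
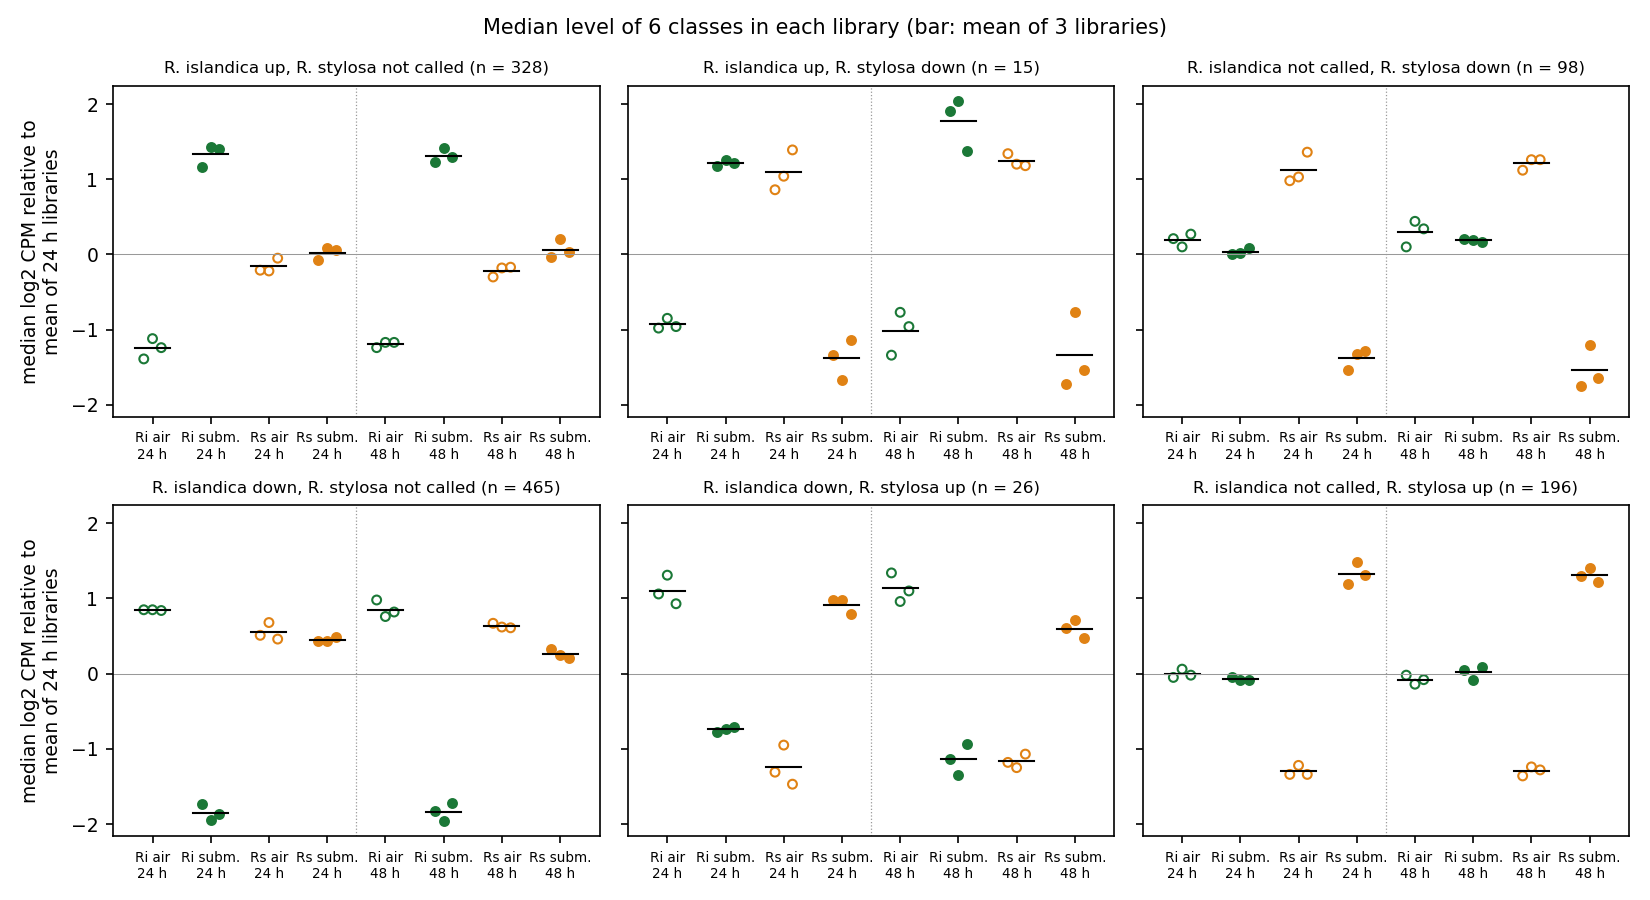
Median over the genes of a class of log2 CPM, each gene relative to its mean over the 12 libraries of 24 h (y axis), for 6 classes in every library (Ri, *R. islandica*; Rs, *R. stylosa*; open circles, air; filled circles, submerged), with bars for the mean of 3 libraries. The classes follow the calls of the 24 h contrasts, and in the 48 h libraries right of the dotted line the air and submerged libraries of *R. islandica* for the 328 and 465 genes, and of *R. stylosa* for the 98 and 196 genes, do not overlap either.

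The class medians were close among replicates. For the 328 genes induced in *R. islandica* alone, the level relative to each gene's 24 h mean was -1.39, -1.12 and -1.24 in the *R. islandica* air libraries and 1.16, 1.43 and 1.40 under water. In *R. stylosa* it was -0.21, -0.22 and -0.05 in air and -0.08, 0.09 and 0.06 under water, so these groups overlapped. The 48 h libraries, on the same scale, gave -1.24, -1.17 and -1.17 in *R. islandica* in air and 1.23, 1.42 and 1.29 under water. *R. stylosa* was then at -0.30, -0.18 and -0.17 in air and at -0.04, 0.20 and 0.03 under water, without overlap. Of the 328 genes, 21 were called upregulated and 9 downregulated in *R. stylosa* at 48 h, against 9.69% and 8.69% of all tested genes. The class was chosen as not called in *R. stylosa* at 24 h. For the 465 genes repressed in *R. islandica* alone, the air libraries were at 0.85, 0.85 and 0.84 and the submerged ones at -1.73, -1.95 and -1.87. In *R. stylosa* they were at 0.51, 0.68 and 0.46 in air and at 0.44, 0.43 and 0.49 under water, again with overlap. At 48 h the *R. stylosa* groups did not overlap here either, with 0.67, 0.62 and 0.61 in air and 0.33, 0.25 and 0.21 under water, and 48 of the 465 were called downregulated in *R. stylosa* at 48 h and 9 upregulated, against 8.69% and 9.69% of all tested genes.

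An interaction can arise because the species are apart under water, because they are apart in air and meet under water, or because their order turns. Among the 586 higher responses, the species differed by call only under water, with *R. islandica* higher, in 218 genes, and only in air, with *R. islandica* lower, in 171. The order turned in 27 genes. *R. islandica* was lower in both conditions in 37 genes and higher in both in 54, and 79 genes had no called difference in either. Among the 897 lower responses, 421 genes differed only under water, with *R. islandica* lower, and 200 only in air, with *R. islandica* higher. The order turned in 34, *R. islandica* was lower in both in 127 and higher in both in 39, and 76 differed in neither. For comparison, 14.0% of all tested genes were called lower and 17.3% higher in *R. islandica* in air at 24 h, and 17.7% and 18.6% under water. These differences use the same libraries as the interaction and are therefore a description of it.

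At 48 h, the higher responders of 24 h differed only under water, with *R. islandica* higher, in 187 genes and only in air, with *R. islandica* lower, in 155, and the order turned in 30. For the lower responders these numbers were 377, 176 and 42. Whether this split differed between the harvests was not tested. Of the 586 genes, *R. islandica* was lower in 48 h air in 221 (37.7%) and higher in 57 (9.73%), against 13.4% and 17.1% of all tested genes. Under water at 48 h it was lower in 36 and higher in 274 (46.8%), against a background of 17.2% and 18.4%. Of the 897 genes, *R. islandica* was lower in 48 h air in 125 (13.9%) and higher in 260 (29.0%), and under water lower in 544 (60.6%) and higher in 42 (4.68%). The split in air differed by class. Of the 196 genes induced in *R. stylosa* alone, 86 stood higher in *R. islandica* and 12 lower in 48 h air, and 20 higher and 99 lower under water. Of the 465 genes repressed in *R. islandica* alone, 102 stood higher and 74 lower in 48 h air, and 11 higher and 308 lower under water.

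Whether the first-day differences were found again was read from the interaction at 48 h. Its calls had a background of 3.25% higher and 5.02% lower responses among all tested genes. Of the 586 higher responses at 24 h, 408 (69.6%) were called again in the same direction and 584 kept their sign. Of the 897 lower responses, 655 (73.0%) were called again and 894 kept their sign. With each harvest fitted on its own 12 libraries, 365 of 521 and 587 of 835 were called again. Against no difference, 551 and 817 passed at 48 h, where 18.8% of all tested genes passed as higher and 19% as lower. The median interaction was 2.28 at 48 h against 2.49 at 24 h for the higher and -2.47 against -2.61 for the lower responses, where the 24 h values are those the genes were chosen by. The share called again was lowest in the 72 genes induced in both species and more steeply in *R. islandica*, with 34 (47.2%). Their median response was 5.61 at 24 h and 4.89 at 48 h in *R. islandica*, and 2.56 and 3.03 in *R. stylosa*. These 72 genes were chosen for a large gap at 24 h, so a smaller one at 48 h was likely in advance. The share called again was highest among the genes with opposite calls, with 15 of 15 and 24 of 26, and in the 8 genes that fell more in *R. stylosa*, with all of them. Genes with opposite calls also had the largest median interactions at 24 h, 4.81 and -4.27. The median was 2.49 in the 72 genes and 2.77 in the 8. How far the size of the interaction sets these shares was not tested. Both responses were called in opposite directions at 48 h as well in 9 of the 15 and 11 of the 26, where 0.103% and 0.162% of all tested genes had such calls. A call at 1 harvest only does not show a change between harvests. The difference between the 48 h and the 24 h interaction itself was called for 0 genes by edgeR at the log2 threshold of 1 (360 genes at an unadjusted p under 0.05) and for 1 by DESeq2. Against no difference, 2058 genes had an unadjusted p under 0.05, and after adjustment edgeR called 1 gene (0.0045%), which was not among the 1483.

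**Figure D4:**
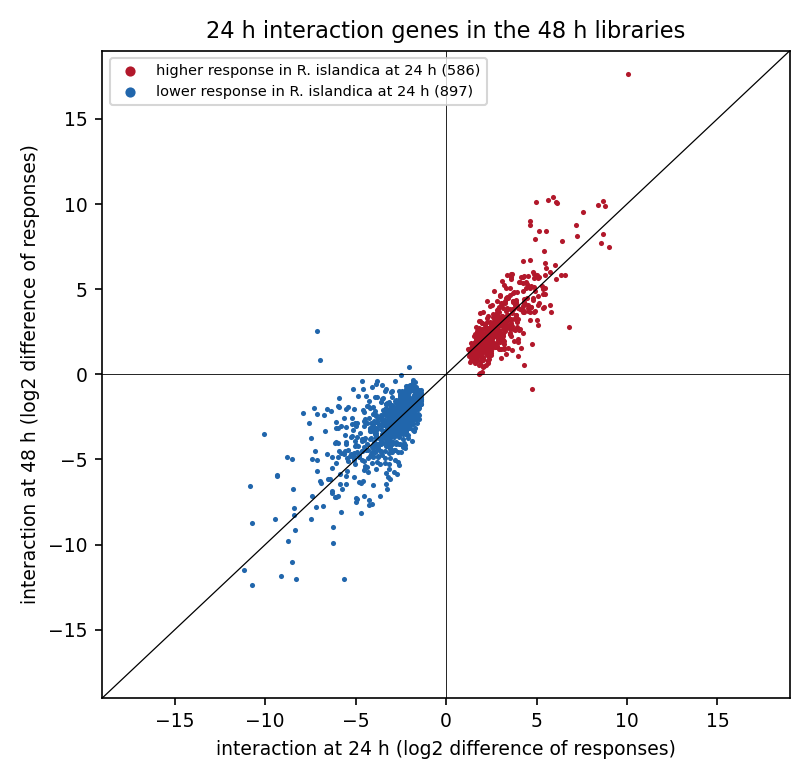
Interaction at 24 h (x axis) and at 48 h (y axis), as log2 differences of the responses, for the 586 genes with a higher (red) and the 897 with a lower (blue) response in *R. islandica* at 24 h, with the diagonal marking equal values. In 584 and 894 of them, respectively, the sign at 48 h was the same.

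The following 4 genes are given with their values in every library. In each direction, 1 has the largest interaction among genes with at least 5 CPM in a 24 h group of each species, and 1 the largest among such genes with opposite calls. Roisl.0209s0248 (orthogroup OG0000528, coding length 459 bases) had 0, 2 and 1 counts in *R. islandica* in air, or 0, 0.0319 and 0.0298 CPM, and 42.3, 66.4 and 60.5 CPM under water. *R. stylosa* had 1.58, 1.06 and 2.09 CPM in air and 6.79, 12.6 and 4.18 CPM under water. Thus the gene was close to 0 in *R. islandica* in air, where *R. stylosa* had a low level, and was highest in submerged *R. islandica*, with no overlap between any 2 of the 4 groups. It rose in both species. The summed counts gave a 2550-fold rise in *R. islandica* (exact binomial 95% interval 872 to 12400, counting error only), and edgeR a 4.98-fold rise in *R. stylosa* (log2 2.32, standard error 0.33, adjusted p = 0.000861). The fitted interaction of 8.78 (standard error 0.73, edgeR adjusted p = 1.88e-07) rests on 3 counts in *R. islandica* in air and depends on the prior count. At 48 h it was 9.89 (adjusted p = 1.64e-07 in edgeR). The gene's 2 other tested orthogroup members had interactions of 0.63 and 1.53 at 24 h, and neither was called.

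Roisl.0004s0068 (OG0001686, coding length 1422 bases) rose in *R. islandica* and fell in *R. stylosa*. It was at 4.72, 9.01 and 12 CPM in *R. islandica* in air and at 30.3, 52.3 and 48.9 CPM under water. In *R. stylosa* it was at 32.1, 30.2 and 24.7 CPM in air and at 0.821, 0.477 and 0 CPM under water. The air and submerged libraries did not overlap in either species, and submerged *R. stylosa* libraries held 41 counts in all. The log2 responses were 2.36 (standard error 0.47, edgeR adjusted p = 0.00546) and -6.04 (standard error 0.67, edgeR adjusted p = 2.13e-06), and the interaction was 8.40 (standard error 0.82, edgeR adjusted p = 1.3e-06), or 9.04 without *R. stylosa* submerged replicate 1. In air, the 3.39-fold lower level of *R. islandica* did not pass (edgeR adjusted p = 0.0524). At 48 h the responses were 2.35 and -7.60. Of its 24 values 18 were not whole, so that part of its reads was shared with other transcripts. The 4 other tested members of its orthogroup had interactions from -5.76 to 4.81, and none was called.

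Roisl.0019s0276 (OG0000299, coding length 663 bases) had the lowest interaction among the called genes with at least 5 CPM in a 24 h group of each species. *R. islandica* was at 33.5, 47.3 and 42.1 CPM in air and at 1.02, 1.23 and 1.5 CPM under water, a log2 response of -5.03 (standard error 0.66, edgeR adjusted p = 1.01e-05). *R. stylosa* was at 2.32, 7.67 and 1.99 CPM in air and at 16.0, 31.5 and 5.26 CPM under water. These 2 groups overlapped, since the lowest submerged library was below the highest in air, and the response of 2.19 (standard error 0.58) did not pass (edgeR adjusted p = 0.0598). The interaction was -7.22 (standard error 0.88, edgeR adjusted p = 1.8e-05), and was -8.07 without *R. stylosa* air replicate 2 and -6.48 without *R. stylosa* submerged replicate 2. At 48 h *R. stylosa* had a response of -0.24 and *R. islandica* of -8.03. The gene's only other tested orthogroup member was also called lower, with an interaction of -8.80.

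Roisl.0004s0309 (OG0000058, coding length 243 bases) fell in *R. islandica* and rose in *R. stylosa*. Its levels were 22.0, 89.2 and 81.1 CPM in *R. islandica* in air and 1.20, 9.65 and 13.9 CPM under water, with the lowest value of both groups in replicate 1. *R. stylosa* had 0.396, 0.304 and 0.374 CPM in air and 4.77, 6.60 and 4.03 CPM under water. The groups did not overlap within either species. The species were 176-fold apart in air (log2 7.46, edgeR adjusted p = 1.32e-07) and overlapped under water, where the difference of 0.67 had an edgeR adjusted p of 0.943. The log2 responses were -2.96 (standard error 0.55, edgeR adjusted p = 0.0013) and 3.83 (standard error 0.82, edgeR adjusted p = 0.00614), and the interaction was -6.79 (standard error 0.97, edgeR adjusted p = 0.000132). At 48 h it was -7.74, with *R. islandica* at -5.10 and *R. stylosa* at 2.65, a response that was not called (edgeR adjusted p = 0.0807). The gene's 5 other tested orthogroup members had interactions from -10.05 to 0.83 at 24 h, and 1 of them was called lower.

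**Figure D5:**
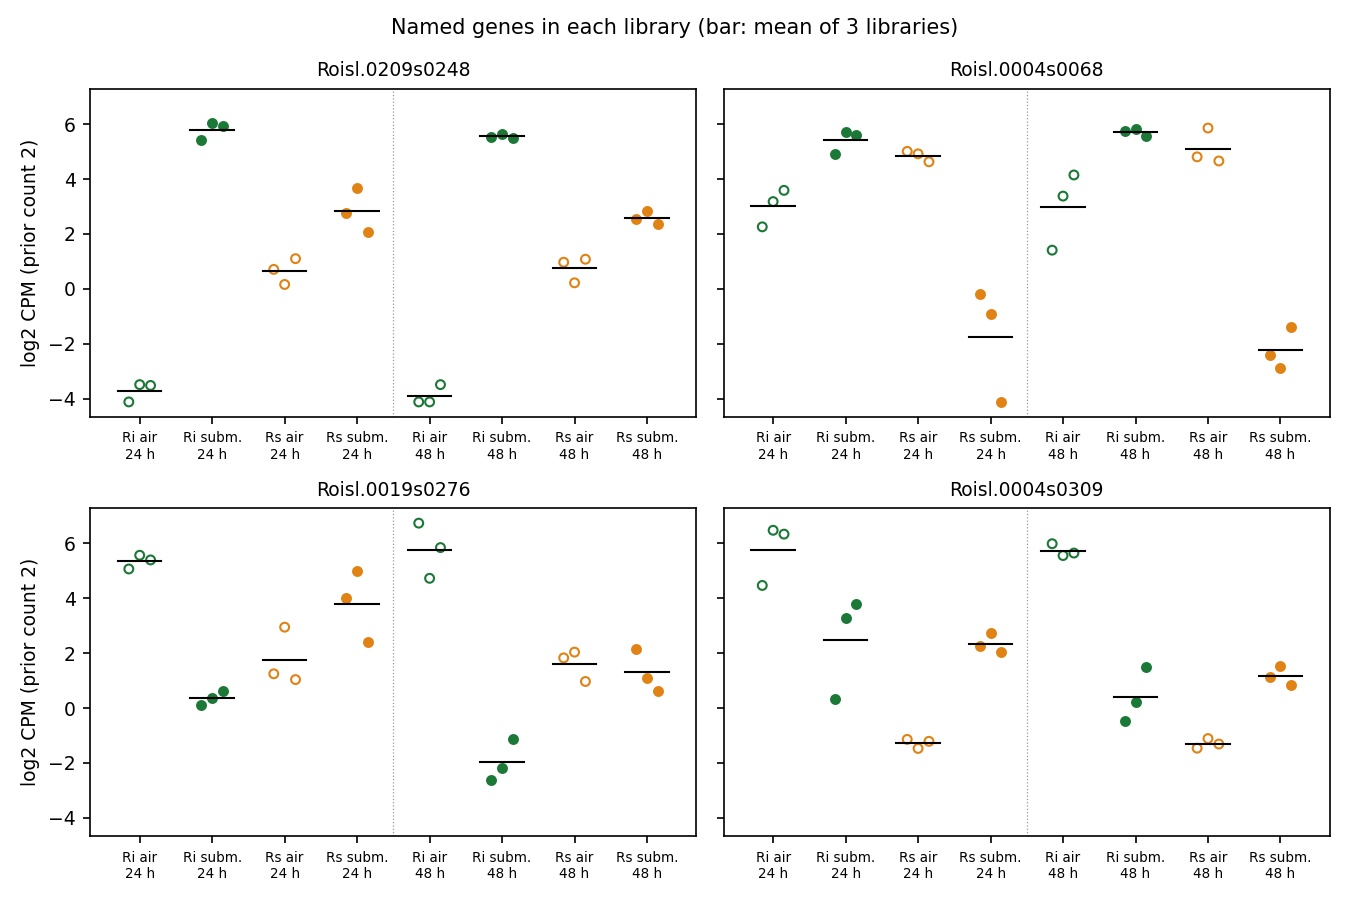
Log2 CPM with a prior count of 2 (y axis) of the 4 named genes in every library (Ri, *R. islandica*; Rs, *R. stylosa*; open circles, air; filled circles, submerged), with bars for the mean of 3 libraries. The upper genes respond more in *R. islandica* and the lower ones less, and libraries with 0 counts are drawn at -4.12.

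The interaction genes spanned the range of levels. Called shares were highest at a mean of 0 to 2 log2 CPM, with 4.31% higher and 6.78% lower responses among 3391 genes, and 16 higher and 11 lower responses belonged to the 425 genes at 8 log2 CPM and above. Under 0 log2 CPM the median standard error of the interaction was 1.22, against 0.152 at 4 to 6 log2 CPM, so that at low levels differences near the threshold were not detectable at this depth. A mean of at least 1 CPM in a 24 h group of each species was reached by 483 of the 586 and 689 of the 897 genes, against 73.7% of all tested genes. Replicates varied more in the called genes, with a median standard deviation of log2 CPM of 0.291 in the higher and 0.293 in the lower responders, against 0.178 over all tested genes.

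Gene structure differed little from the background. The median coding length was 1114.5 bases in the higher and 1056 bases in the lower responders, against 1089 bases over all tested genes. More than 1 isoform was annotated for 6.48% and 6.80%, against 7.16%. An orthogroup that the tables mark as universal held 93.0% and 92.3% of them, against 88.4% of all tested genes, and the only gene of its orthogroup was 75.9% and 76.6%, against 78.7%. Where another member of the orthogroup was tested, it was called in the same direction for 27 of 128 higher (21.1%) and 45 of 178 lower responders (25.3%). Over all 4025 tested genes with such a partner, 6.14% had one called higher and 6.83% one called lower. In these 27 and 45 genes, all 24 deposited values were whole numbers in 29.6% and 31.1%, against 75.6% of all tested genes. Values that are not whole arise since kallisto splits a read among the transcripts it matches. The 75.6% also covers genes without a tested partner, and the share among the 4025 genes with one was not computed. The part of read sharing in these joint calls was not tested. A partner called in the opposite direction was found for 10 of the 128 (7.81%) and 9 of the 178 genes (5.06%), close to the shares of 6.83% and 6.14% with a partner called lower or higher over all tested genes. Both a higher and a lower response were held by 9 of the 1699 orthogroups with 2 or more tested genes.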

How the data were processed

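RNA-seq of young leaves was analysed from 24 libraries of 2 species. Polyadenylated RNA was sequenced in paired-end mode, checked with FastQC 0.12.0 (submitters' processing notes) and assigned for both species with kallisto to the *R. islandica* transcriptome (annotation v1.1). The authors deposited the expected counts (estimated counts) per transcript without normalization, and 11.8% of the values are not whole (tolerance 0). Columns numbered 1 and 2 were read as the 24 and 48 h harvests and Roman numerals as replicates. Isoforms of the 32703 transcripts were summed to 30646 genes and rounded. The tables also hold lengths, of which the coding length was used. A share of *R. stylosa* reads lost on this reference cancels in the interaction only where it is equal in air and under water, which was not tested.

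All 24 libraries in 8 groups were fitted with edgeR 4.0.16 in R 4.3.3 (filterByExpr, TMM, estimateDisp, glmQLFit, glmTreat at a log2 threshold of 1), which was also tested on simulated data. DESeq2 1.42.0, with the study's thresholds, was an alternative. The others were other scalings, filters and thresholds, the 24 h libraries alone, thinning, orthogroup sums, a replicate block and each 24 h library left out in turn. Named genes were chosen by the rule given with them. Members, rules and tests were chosen with earlier results of these data known. As intervals and floors cover counting error only, they do not include the spread between plants.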

Additional observations from a re-analysis of the deposited data

Results flagged for a closer look

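The interaction test marked these results, since the same contrast of submergence and air differed between the species. Across all tested genes it called 586 higher and 897 lower responses in *R. islandica*. Among the named genes, the log2 difference of the responses was 8.78 for Roisl.0209s0248, 8.40 for Roisl.0004s0068, -7.22 for Roisl.0019s0276 and -6.79 for Roisl.0004s0309. All 4 named genes were called with each 24 h library left out in turn, with edgeR adjusted p of 0.00075 or lower. They were chosen for large interactions in these same libraries, so this result was likely in advance. With 3 libraries per group, no single library was screened as an outlier.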

How the results depend on the processing

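No interaction gene was called in the opposite direction by DESeq2, under another scaling or filter or with the 24 h libraries alone. The same held after thinning, under a replicate block and with a 24 h library left out. These fits reuse all or most of the libraries that chose the genes, so a turned direction was hardly possible. With another threshold the fit was the same, and the sign could not change. A threshold applied after the test against no difference gave 1541 higher and 2163 lower responses, 59 and 117 genes with opposite calls, 1096 and 1578 called again at 48 h, and 1 gene for the difference between harvests. Without any threshold these numbers were 3492, 3828, 384, 470, 2662, 2851 and 1. DESeq2 called 410 and 611 interactions, 6 and 10 opposite genes, 274 and 425 again at 48 h and 1 for the difference between harvests, and its count of genes with a stronger response in *R. stylosa* was 202 against 321. Of the main calls, 401 of 586 and 593 of 897 were also called by DESeq2. The cause was not tested.

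With replicates left out, the calls were 484 to 612 higher and 754 to 936 lower, 10 to 16 genes up in *R. islandica* and down in *R. stylosa*, 18 to 31 with the reverse calls, 360 to 416 and 568 to 652 again at 48 h, and 0 for the difference between harvests. Replicate numbers were not treated as pairs, since the deviations of same-numbered air and submerged libraries at 24 h correlated at 0.0959 to 0.344 in *R. islandica* and at -0.155 to 0.107 in *R. stylosa*, and not every library correlated best with its own number. With the replicate number as a block, 662 and 991 interactions were called in the model of 24 libraries and 559 and 865 in that of 12, and this changed the call of no named gene. The scaling of DESeq2 in edgeR gave 611 and 860 calls, with a median interaction over all genes of 0.001. Thinning all libraries to the smallest total gave 529 and 778 calls and moved Roisl.0209s0248 to 10.99. Orthogroup sums gave 508 and 821.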
